A study of Mus musculus with 6 samples.

Results

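The genes examined here encode the chains of collagen VI (Col6a1, Col6a2, Col6a3, Col6a5 and Col6a6), collagen VIII (Col8a1 and Col8a2) and collagen X (Col10a1), which are collagens that build networks rather than thick fibrils. They were taken by symbol from a table of 17606 genes in mouse corneal keratocytes. All 8 were listed, and 6 had enough counts to be among the 13888 genes tested. Bulk RNA-seq had been performed on keratocytes, the mesenchymal cells of the corneal stroma, isolated by FACS from the mouse cornea. The labels give an age of 10 weeks. Tamoxifen had been given in 3 doses, and the labels state 1 month for the treatment. The paper's timing of tamoxifen in this line, with keratocytes isolated 1 month later, would make the mice older than 10 weeks. Which stage the label age refers to is not given. The Ptch1-ablated group (3 libraries) carried the tamoxifen-dependent Cre of a Prrx1-CreERT knock-in together with floxed Ptch1 (Ptch1 f/f), whereas the control group (3 libraries) was of the same age and received tamoxifen as well. Ptch1 is the Hedgehog receptor that restrains the pathway, and the comparison asked how the keratocyte transcriptome responds when Hedgehog signaling stays on. The sample titles mark the controls as WT. Whether they carried the Cre or a floxed allele, the sorting gate and the number of mice behind each library are not given in the sources used here. Prrx1-CreERT also recombines in corneal endothelial cells, so that the model is not limited to the stroma.

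Collagen VI is secreted as a heterotrimer of the Col6a1 chain, the Col6a2 chain and a chain that completes the trimer, for which Col6a3 is the usual gene and Col6a5 and Col6a6 are the alternative genes. Trimers pair up inside the cell and then join end to end into beaded microfilaments, which surround cells and lie between the collagen fibrils of the corneal stroma. Collagen VIII, built from the short Col8a1 and Col8a2 chains, forms the hexagonal lattice of Descemet's membrane under the corneal endothelium, and mutations of COL8A2 are a known cause of an early-onset corneal endothelial dystrophy. Collagen X is a related short-chain network collagen known from hypertrophic cartilage.

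Library totals ran from 20258414 to 24788039 counts. Values per library are given as CPM, the count scaled to the size of the library, or as TPM, which also corrects for transcript length and is used wherever chains are set against each other. Means carry the SD over n = 3 libraries per group, and log2FC is the log2 ratio of Ptch1-ablated over control with its SE. The keratocyte gene Kera stood at 12711 to 14395 CPM in the controls and 3775 to 5512 CPM after Ptch1 ablation, so the defining marker was abundant in every library. The gene total of Ptch1 was higher in the libraries labelled Ptch1-ablated (185 to 251 CPM) than in controls (5.47 to 16.2 CPM). A gene total does not resolve the deleted exons, so that it cannot check the deletion. The Hedgehog target Gli1 lay at 125 to 129 CPM after Ptch1 ablation and at 0.0459 to 1.58 CPM in the controls. In scores on the second principal component, control replicate 1 (63.29) and ablated replicate 2 (55.02) stood apart from the other libraries, which lay between -48.78 and -11.35.

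In collagen VI and in collagen VIII a single chain was called changed while its abundant partners were not. Of the 6 genes tested, 2 were called changed, Col6a3 downward and Col8a1 upward, where a call required 0.05 or less for the edgeR adjusted p together with a change of 2-fold or more. Over all genes tested 5.49% were called by this rule, 3.36% upward and 2.13% downward. Col6a1, Col6a2, Col8a2 and Col6a5 did not pass. Col6a6 and Col10a1 had too few counts to be tested. In a bulk sample fewer cells of a type and less RNA per cell cannot be told apart.

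**Figure D1:**
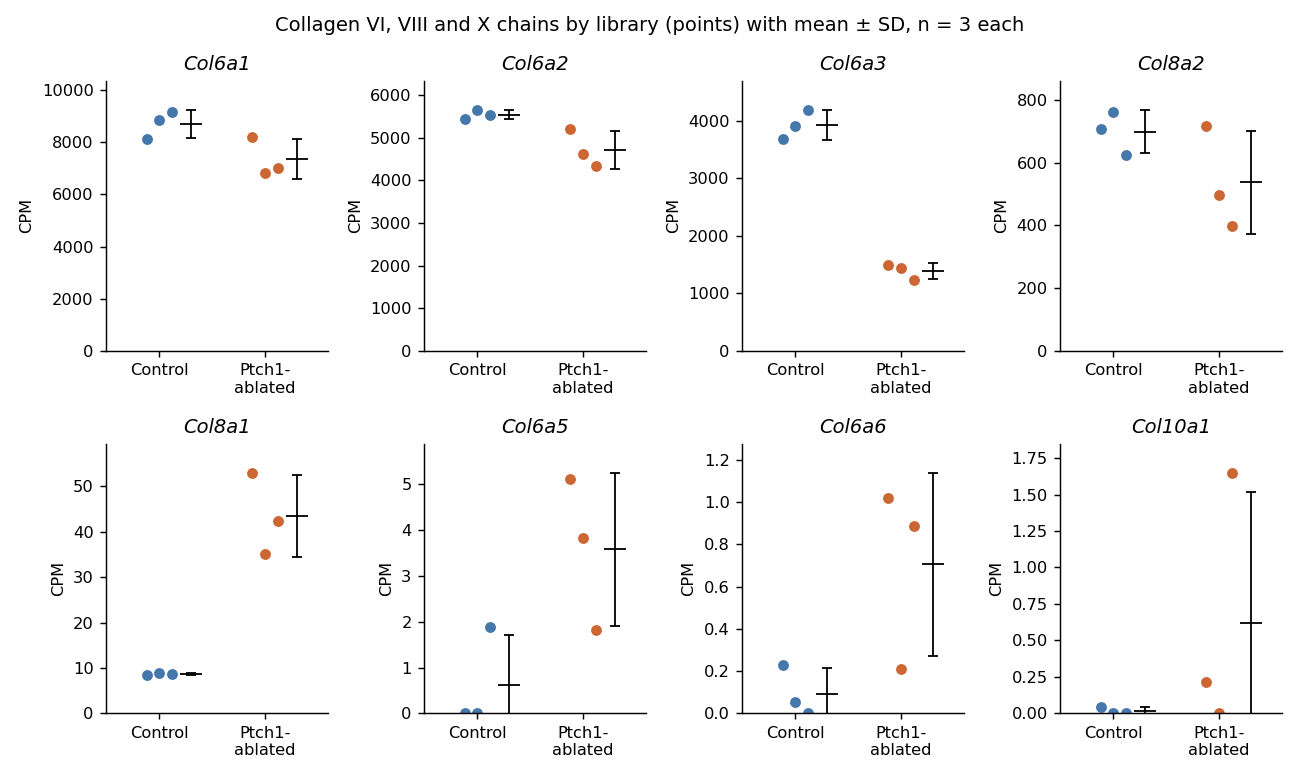
Abundance of the 8 collagen chain genes in each library, in CPM on linear axes that start at 0. Points are libraries, and the black bar is the mean with its SD (n = 3 per group, cut off at 0 where it would be negative). Col6a3 separates downward (3679 to 4189.5 against 1231 to 1489 CPM) and Col8a1 upward (8.49 to 8.94 against 35 to 53 CPM), while the groups overlap in Col6a1, Col8a2, Col6a5, Col6a6 and Col10a1. Col6a2 also lies lower without overlap (5453 to 5658 against 4331 to 5207 CPM), though its difference did not pass the test.

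The core chains of collagen VI were among the most abundant transcripts of the keratocyte. By mean TPM in the controls, Col6a1 ranked 21 and Col6a2 ranked 30 among the 17606 genes, and all collagen VI chains together took 0.86 ± 0.051% of the TPM. In the ablated group the ranks were 17 and 29, and the joint share was 0.791 ± 0.0795%. Col6a3 held rank 119 in the controls and rank 354 in the ablated group. The level per length in controls thus ran from Col6a1 (4642 ± 369 TPM) through Col6a2 (3057 ± 81.3 TPM) to Col6a3 (903 ± 66.4 TPM), and these neighbours did not overlap in the controls.

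Col6a1 encodes a chain that joins that of Col6a2 in the trimer. Col6a1 stood at 8117, 8853 and 9157 CPM in control replicates 1 to 3 and at 8221, 6827 and 7013 CPM in ablated replicates 1 to 3. The lowest control lay below the highest ablated library, so the groups overlapped. The log2FC, ablated over control, was -0.24 ± 0.097, with a 95% interval from -0.46 to -0.03 and an edgeR adjusted p of 0.172. As a ratio the interval ran from 0.729 to 0.978.

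Col6a2, the neighbour of Col6a1 on the chromosome, behaved much as its partner did. It stood at 5453, 5658 and 5538 CPM in the controls and at 5207, 4633 and 4331 CPM after Ptch1 ablation. All 3 ablated libraries were lower than all controls, as the groups of 27.4% of all genes tested did not overlap in one direction or the other. The log2FC was -0.23 ± 0.095 (95% interval -0.44 to -0.02, edgeR adjusted p = 0.183), so that the difference did not pass the test. On the TPM scale the means were nearly level, at 3057 ± 81.3 and 3005 ± 334.

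Col6a3 encodes the longest of the common chains, with a large array of von Willebrand factor A domains and a C-terminal fragment known as endotrophin. Col6a3 stood at 3679, 3914 and 4189.5 CPM in the controls and at 1489, 1439.7 and 1231 CPM after Ptch1 ablation. The 2 groups were far apart, with the lowest control well over the highest ablated library. It fell 2.83-fold, a log2FC of -1.50 ± 0.11 (95% interval -1.74 to -1.26, edgeR adjusted p = 4.41e-06), and 452 of the 13888 genes tested had a lower value. Without control replicate 1 the log2FC was -1.55 and without ablated replicate 2 it was -1.53. The count obtained per TPM, which follows the length that was assigned to the gene, was 2.27 to 2.34 times that of Col6a1 in controls and 2.34 to 2.37 times after ablation.

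The proportion of the chains was then compared within each library. Col6a2 made up 69.6, 66.1 and 62.4% of the Col6a1 TPM in the controls and 65.5, 69.6 and 63.5% after Ptch1 ablation. Col6a3 made up 19.9, 18.9 and 19.6% of the Col6a1 TPM in the controls but 7.75, 8.89 and 7.45% after Ptch1 ablation. The balance of the Col6a1 and Col6a2 messages overlapped between the groups, while the proportion of Col6a3 did not. The log2 ratio of Col6a2 over Col6a1 was -0.60 ± 0.078 in controls and -0.60 ± 0.067 after ablation (exact permutation p = 0.9, two-sided). The log2 ratio of Col6a3 over Col6a1 moved from -2.36 ± 0.039 to -3.64 ± 0.13, a difference of -1.28 or 2.43-fold (exact permutation p = 0.1, two-sided, and 0.167 after Benjamini-Hochberg adjustment over the 5 ratios compared). With 3 against 3 libraries a p of 0.1 is the smallest this test can give, so that no ratio could pass 0.05. Of the collagen VI TPM, Col6a3 held 10.5 ± 0.266% in controls and 4.6 ± 0.332% after ablation.

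**Figure D2:**
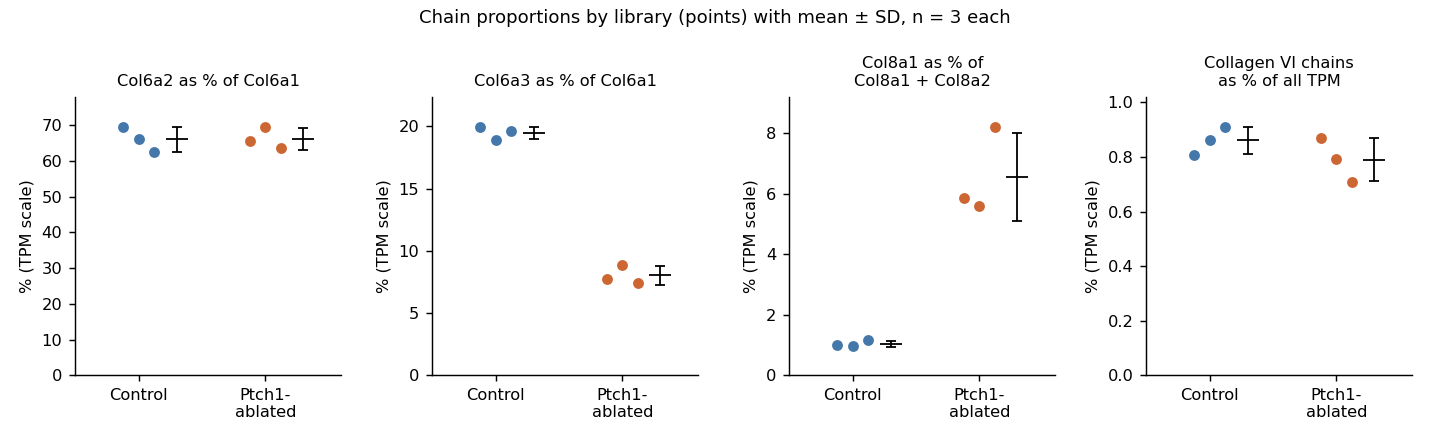
Chain proportions on the length-corrected TPM scale, in percent, with a point per library and the mean with its SD beside them (n = 3 per group, axes start at 0). Col6a3 drops from 18.9 to 19.9% of Col6a1 to 7.45 to 8.89%, the Col8a1 part of collagen VIII climbs from between 0.976 and 1.16% to between 5.58 and 8.22%, and Col6a2 relative to Col6a1 stays between 62.4 and 69.6%.

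The alternative chains Col6a5 and Col6a6 were scarce. Col6a5 had estimated counts of 0, 0 and 43 in the controls and 119.96, 89.53 and 44.57 after Ptch1 ablation, or 0.628 ± 1.09 against 3.58 ± 1.66 CPM. Control replicate 3 alone carried the gene in its group, at a level close to that of ablated replicate 3, so that the groups overlapped. The log2FC of 2.49 ± 1.5 (95% interval -0.75 to 5.74) had an edgeR adjusted p of 0.393. Without control replicate 3 both remaining controls were at 0 and the gene passed (edgeR adjusted p = 0.013), so that this library decided the call.

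Col6a6, which lies next to Col6a5, had estimated counts of 5, 1 and 0 in the controls and 24.04, 5.47 and 22.43 after Ptch1 ablation. The fractional parts of the 2 genes were complementary, since their sum was a whole number in every library (5, 1 and 43 in controls and 144, 95 and 67 in ablated ones). Some reads had therefore been divided between the pair, and how much belongs to either gene is uncertain. Taken as 1 gene, a choice made after the data had been seen, the pair had a log2FC of 2.55 (edgeR adjusted p = 0.213), and every ablated library lay above every control. The groups of 27.4% of all genes tested likewise did not overlap, in either direction. Without the filter on low counts Col6a6 had a log2FC of 2.84 ± 1.9 (edgeR adjusted p = 0.452). Together the pair amounted to 0.0202 ± 0.0205% of the Col6a3 TPM in controls and 0.321 ± 0.087% after ablation. The log2 ratio to Col6a3 moved by 4.62 (exact permutation p = 0.1, adjusted 0.167). It was 3.67 without control replicate 2, which held a single count for the pair, and 5.50 without control replicate 3. In both groups the common chain Col6a3 was thus more abundant than the alternative ones by a wide margin. The remaining mouse chain of this kind, Col6a4, was not analysed here.

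Among the collagen VIII chains, Col8a2 was the abundant one and Col8a1 the one that changed. Col8a1 stood at 8.49, 8.94 and 8.76 CPM in the controls and at 53, 35 and 42.4 CPM after Ptch1 ablation. The controls were nearly identical, and the lowest ablated library lay well over all of them. The gene rose 4.97-fold, a log2FC of 2.31 ± 0.25 (95% interval 1.76 to 2.87, edgeR adjusted p = 9.80e-05), and 97.5% of the genes tested had a lower value. Without control replicate 1 the log2FC was 2.29 and without ablated replicate 2 it was 2.45.

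Col8a2 stood at 708, 763 and 625 CPM in the controls and at 716, 497 and 397 CPM after Ptch1 ablation. Ablated replicate 1 lay within the range of the controls and the other ablated libraries below it. The log2FC was -0.38 ± 0.19 (95% interval -0.79 to 0.03, edgeR adjusted p = 0.286). Without ablated replicate 1 it was -0.64, and the gene passed the 0.05 threshold, with a change of under 2-fold (edgeR adjusted p = 0.0327). On the TPM scale Col8a2 had 340 ± 27.6 in controls and 303 ± 92.2 after ablation, against 3.57 ± 0.132 and 20.5 ± 3.81 for Col8a1. Even after its rise Col8a1 therefore remained the minor chain, at 5.85, 5.58 and 8.22% of the collagen VIII TPM after Ptch1 ablation compared with 0.995, 0.976 and 1.16% in the controls. The log2 ratio of Col8a1 over Col8a2 moved from -6.57 ± 0.14 to -3.86 ± 0.33, a difference of 2.71 (exact permutation p = 0.1, adjusted 0.167). The collagen VIII sum relative to the collagen VI sum had a mean log2 ratio of -4.65 in both groups (SD 0.17 in controls and 0.28 after ablation, n = 3 each, exact permutation p = 1).

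Col10a1 was at the edge of detection. Counts of 1, 0 and 0 were found in control libraries against 5, 0 and 41 after Ptch1 ablation, and the limit for a gene with no counts, taken as 3 counts, was 0.121 to 0.158 CPM. A single library, ablated replicate 3, carried nearly all counts. Without the filter on low counts the log2FC was 4.91 ± 2.3 (edgeR adjusted p = 0.27), and a difference was not detectable at this depth and spread.

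The bases upstream of the partner chains are shown because Col6a3 and Col8a1 changed while Col6a1 and Col8a2 did not pass the test. Each window holds the 100 bases before the RefSeq start on the strand of the gene (GRCm38.p6), and capitals mark GC boxes (GGGCGG on either strand, overlapping matches included). The windows are those of Col6a1 (chr10:76726045-76726144, minus strand), Col6a3 (chr1:90843972-90844071, minus strand), Col8a1 (chr16:57754738-57754837, minus strand) and Col8a2 (chr4:126286694-126286793, plus strand).
Col6a1: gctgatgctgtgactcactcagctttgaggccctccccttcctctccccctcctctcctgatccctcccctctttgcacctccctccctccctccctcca
Col6a3: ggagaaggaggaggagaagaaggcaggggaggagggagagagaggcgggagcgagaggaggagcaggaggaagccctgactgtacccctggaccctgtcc
Col8a1: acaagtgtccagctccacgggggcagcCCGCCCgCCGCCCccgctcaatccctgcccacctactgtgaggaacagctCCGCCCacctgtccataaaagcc
Col8a2: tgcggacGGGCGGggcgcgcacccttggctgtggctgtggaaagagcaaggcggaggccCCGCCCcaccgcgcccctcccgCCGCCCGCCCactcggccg
The Col8a1 window held 3 GC boxes and the Col8a2 window held 4, while the Col6a1 and Col6a3 windows held 0. Collagen VI windows not shown did hold GC boxes. Col6a2, on the minus strand, had 3 in the window chr10:76623405-76623504 and 0 in that of its upstream start (chr10:76623631-76623730), and Col6a5 and Col6a6 had 1 each. The Col10a1 window held 0. Of 32418 such windows over the genome 24.9% held at least 1. A TATA box (TATAAA, either strand, in 5.55% of windows) and a CCAAT box (CCAAT, either strand, in 18.8%) were found in 0 of the 4 windows shown. The Col6a1 window was rich in C and T (81% of bases) and that of Col6a3 poor in them (23%), at a like GC content of 63 and 65%. These matches describe the letters of the windows and were not measured by the experiment.

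Receptors and binding partners of collagen VI were examined as a list of 21 genes, of which 19 were tested. Of these, 4 were lower and 2 were higher at an edgeR adjusted p of 0.05, where 8.48% of all genes tested passed, 4.68% upward and 3.80% downward, and 13 did not pass. The median log2FC of the list was -0.20, beside 0.00 over all genes tested. Among the cell surface receptors, Itga11, the collagen-binding integrin of stromal fibroblasts, fell from 588 ± 112 to 220 ± 8.4 CPM (log2FC -1.41 ± 0.15, edgeR adjusted p = 8.93e-05). The collagen receptor kinase Ddr2 was at 775 ± 89.8 and 871 ± 139 CPM and the collagen VI receptor Antxr1 at 444 ± 67.6 and 318 ± 49.9 CPM. Neither passed the test, with edgeR adjusted p of 0.578 and 0.0939.

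Partners in the matrix moved in both directions. Fn1, encoding fibronectin, fell from 1175 ± 186 to 502 ± 35.8 CPM (log2FC -1.23 ± 0.14, edgeR adjusted p = 0.000115), and Tgfbi, encoding a collagen VI-binding protein mutated in corneal dystrophies, fell from 478 ± 18.9 to 270 ± 9.97 CPM (-0.82 ± 0.12, edgeR adjusted p = 0.00088). Biglycan (Bgn), which binds collagen VI, had a log2FC of -0.67 ± 0.093 (edgeR adjusted p = 0.000648). In contrast, Matn2, of the matrilin family that links collagen VI to other matrix proteins, rose from 34.5 ± 7.35 to 78.2 ± 4.86 CPM (1.18 ± 0.2, edgeR adjusted p = 0.00287), and the perlecan gene Hspg2 from 130 ± 21.1 to 228 ± 35.7 CPM (0.82 ± 0.17, edgeR adjusted p = 0.0103). The far more abundant matrilin Matn4 was at 2404 ± 145 and 1887 ± 216 CPM (edgeR adjusted p = 0.0817), and decorin (Dcn) at 37565 ± 5055 and 30101 ± 5732 CPM (edgeR adjusted p = 0.177). Matn3 had 0 counts in every control and 0, 0 and 0.201 CPM in the ablated libraries, and was not tested.

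Enzymes and chaperones that modify and fold collagen chains formed a list of 10 genes, of which 9 were tested. Of these, 2 were lower and 0 higher by edgeR, with a median log2FC of -0.30. Of all genes tested 3.80% were lower and 4.68% higher at the same adjusted p of 0.05. All 9 values were negative, so that 0 genes were higher at an unadjusted p under 0.05 as well, and DESeq2 called 0 higher. Colgalt2, a galactosyltransferase of collagen hydroxylysine, fell from 391 ± 17.9 to 180 ± 28.5 CPM (log2FC -1.12 ± 0.15, edgeR adjusted p = 0.000412). The lysyl hydroxylase gene Plod1 had a log2FC of -0.73 ± 0.11 (edgeR adjusted p = 0.00106). Plod3, whose product is needed for the secretion of collagen VI, was at 123 ± 38.7 and 99.9 ± 12.9 CPM (edgeR adjusted p = 0.497). The prolyl hydroxylase genes P4hb (log2FC -0.19 ± 0.12) and P4ha1 (-0.04 ± 0.13) and the collagen chaperone Serpinh1 (-0.25 ± 0.16) did not pass either, with edgeR adjusted p of 0.411, 0.93 and 0.431.

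Genes of hypertrophic cartilage and bone were examined beside Col10a1. Of 12 genes 10 were tested, with 3 higher, 0 lower and a median log2FC of 1.81. Of all genes tested 4.68% were higher and 3.80% lower at this edgeR adjusted p of 0.05. All 10 values were positive, so that 0 genes were lower at an unadjusted p under 0.05 as well, and DESeq2 called 0 lower. Alpl, encoding the alkaline phosphatase of mineralizing cells, had 0, 0.263 and 1.14 CPM in the controls and 17.8, 18.4 and 15.5 CPM after Ptch1 ablation (log2FC 5.17 ± 0.84, edgeR adjusted p = 0.00211). The osteoblast transcription factor Sp7 had 1.93, 0 and 0.219 CPM in the controls and 11, 15.1 and 12.8 CPM after Ptch1 ablation (4.16 ± 0.98, edgeR adjusted p = 0.0196). For both genes all ablated libraries lay above all controls, where the groups of 27.4% of all genes tested did not overlap in either direction. The size of either value depended on single controls, since the log2FC of Alpl was 4.58 without control replicate 1 and 7.04 without control replicate 3, and that of Sp7 was 6.73 without control replicate 1 and 3.60 without control replicate 2. The call of Sp7 was lost without control replicate 3 or any 1 of the ablated replicates, with log2FC values of 3.72 to 4.27 and edgeR adjusted p of 0.0547 to 0.0804. Col9a1, a cartilage collagen chain, was at 18.7 ± 2.63 and 37.9 ± 12.7 CPM (log2FC 1.02 ± 0.29, edgeR adjusted p = 0.0499), and lost its call without any 1 library except ablated replicate 2, at log2FC values of 0.81 to 1.09 and edgeR adjusted p of 0.081 to 0.211.

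Other members of that list did not pass. Runx2, the transcription factor of bone and hypertrophic cartilage, was at 44.7 ± 4.46 and 70.2 ± 12.1 CPM (edgeR adjusted p = 0.0617). The log2FC was 0.23 ± 0.26 for the transcription factor Mef2c, 0.34 ± 0.27 for the parathyroid hormone receptor Pth1r and 2.29 ± 0.87 for the cartilage matrix gene Comp, with edgeR adjusted p of 0.7, 0.54 and 0.15. Col2a1, the main collagen gene of cartilage, was at or under 3 counts in all 6 libraries. Ibsp was at 0 in every control and at 0.938, 0 and 0.765 CPM in the ablated libraries. Col2a1 and Ibsp were not tested.

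**Figure D3:**
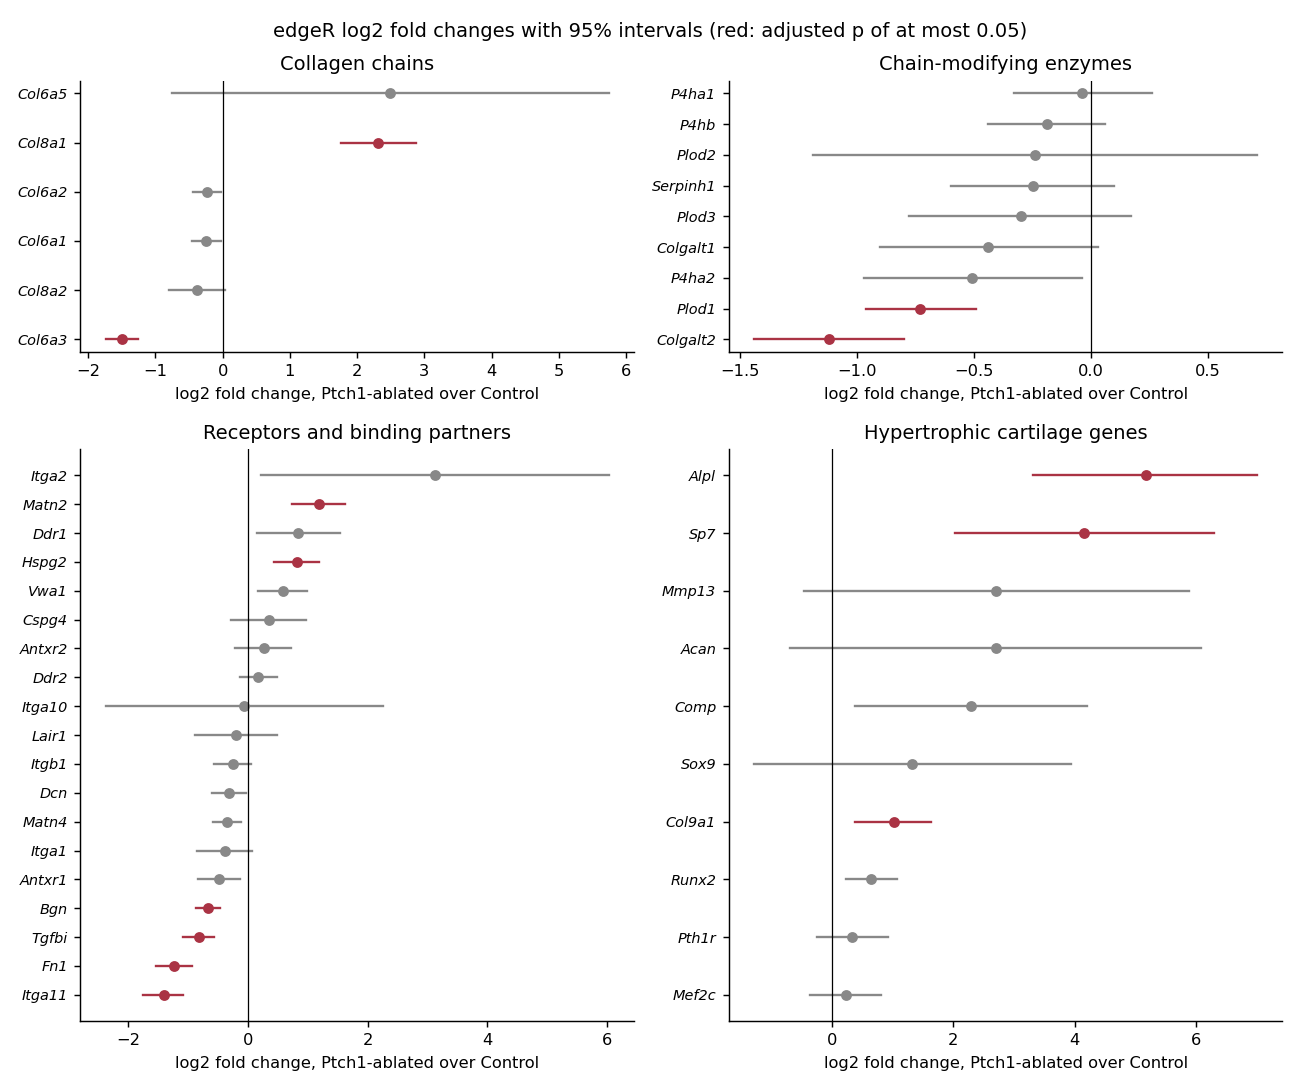
log2FC values (Ptch1-ablated over control) with 95% intervals from edgeR, for the tested collagen chains and the 3 lists, on linear axes that differ between panels. Red marks an adjusted p of at most 0.05. Col6a3 (-1.50) and Col8a1 (2.31) are the chains past the threshold, with 2 of 9 enzymes, 6 of 19 partners and 3 of 10 cartilage genes. Of all genes tested 8.48% passed it.

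Markers of other cells were measured because collagens VI and VIII are also made by vascular, mural and corneal endothelial cells. Of 6 corneal endothelial markers 2 were lower, Alcam and Tfap2b, and 4 did not pass, at an edgeR adjusted p of 0.05. Of all genes tested 4.68% were higher and 3.80% lower by this rule. The 6 markers had a summed level of 735 to 871 CPM in controls and 561 to 640 CPM after ablation. Slc4a11, an ion transporter gene of that endothelium, was at 4.82 ± 4.13 and 20.9 ± 5.79 CPM (edgeR adjusted p = 0.0541). The mural markers summed to 874 to 1065 CPM in controls and 1281 to 1349 CPM after ablation, with Rgs5, Mcam and Notch3 of 5 higher. The vascular endothelial sum ran from 557 to 752 and from 584 to 642 CPM, with Pecam1 and Cdh5 of 4 higher. Kdr held most of this sum, at 553 ± 87.3 and 420 ± 15.7 CPM (edgeR adjusted p = 0.112). The sum thus mainly follows Kdr and can hide the scarcer markers. Tek was at 19.8 ± 10.6 and 44.6 ± 7.72 CPM (edgeR adjusted p = 0.053).

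The leukocyte sum was 2114 to 2341 CPM in controls and 2844 to 2905 CPM after ablation, with Cd74 and Itgam of 5 higher. Cd74 held most of this sum, at 1589 ± 115 and 2307 ± 115 CPM. Lyz2 (log2FC -0.28), Cd68 (-0.13) and Ptprc (0.19) did not pass, with edgeR adjusted p of 0.345, 0.843 and 0.767. The epithelial sum was 39.6 to 68.6 CPM in controls and 2.25 to 9.04 CPM after ablation, with Krt5, Krt14 and Krt15 of 6 lower and Krt12 higher. Krt12 was at 0 in every control and stayed low after ablation, at 0.895, 2.08 and 2.09 CPM. The melanocyte sum was at most 6.12 CPM, with 0 of 2 tested genes past the threshold (edgeR adjusted p of at least 0.919) and Mlana and Dct at or under 3 counts in all ablated libraries. Of the 6 keratocyte markers 5 were lower and Lum did not pass (edgeR adjusted p = 0.812). Their summed level was 49947 to 51577 CPM in controls and 27593 to 34161 CPM after ablation. The vascular endothelial and melanocyte sums overlapped between the groups, whereas the other sums given here did not. Among single genes, the groups of 27.4% of all genes tested did not overlap. The part of these cell types in the changes of Col6a3 and Col8a1 was not tested.

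The genes whose pattern over the 6 libraries came nearest to the chains were listed as a description. Likeness was the root mean square difference of log2(CPM + 1) values centred on each gene's mean, so that the difference between the groups itself weighs in. Nearest to the mean of Col6a1, Col6a2 and Col6a3 was Plod1 (0.0572), followed by Selenos (0.0611), Pdk2 (0.0705), Sord (0.0712) and Laptm4b (0.0722), where the median over all genes tested was 0.485. That mean blends log2FC values of -0.24 (Col6a1), -0.23 (Col6a2) and -1.50 (Col6a3). The genes named lay between these, from -0.77 (Sord) to -0.57 (Laptm4b), and so resemble the average rather than any single chain. Nearest to Col8a1 were Zfp575 (0.117), Septin4 (0.128), Cdc42ep4 (0.132), Fndc1 (0.136) and Slc5a5 (0.156), beside a median of 1.14. Zfp575 was near the limit of detection in the controls, at a mean of 0.497 against 5.74 CPM after ablation, where the added 1 narrows differences, and its log2FC was 3.52 compared with 2.31 for Col8a1. For Col6a3 alone, added after its values had been seen, they were Htr5b (0.101), Ano1 (0.11), Trp53i11 (0.111), Aebp1 (0.113) and Gpm6b (0.119), beside a median of 0.827. Aebp1, which encodes a collagen-binding protein of the matrix, fell from 2551 to 933 CPM in the mean of 3 libraries each (log2FC -1.45).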

How the data were processed

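RNA was measured in 3 control and 3 Ptch1-ablated libraries of sorted keratocytes, described by the study's methods as biological replicates, and groups and replicate numbers were taken from the sample titles. The labels name the Illumina TruSeq RNA kit, whereas the paper's methods describe rRNA depletion and a BGISEQ-500 platform. The authors aligned reads with Bowtie2 (2.2.5) and quantified genes with RSEM (1.2.12). The submitters' processing notes name mm9. The annotation and strandedness are not given in the sources used here. The deposited table holds RSEM expected counts, TPM and FPKM per library, and the authors' group means, which were not used. Of the expected counts 18.6% were not whole.

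Expected counts were rounded, filtered with filterByExpr (13888 of 17606 genes kept), scaled by TMM and compared by edgeR 4.0.16 with quasi-likelihood F tests, two-sided and without covariates, and p-values were adjusted by Benjamini-Hochberg over all genes tested. The SE was taken from the fold change and its F statistic. Intervals are unadjusted. Chain ratios used the deposited TPM and exact permutation tests (SciPy 1.17.1). The code was tested on simulated data. Alternatives were RLE scaling, library totals only, DESeq2 1.42.0, limma 3.58.1 on log2(TPM + 1) and log2(TPM + 0.1), omitting the filter, a minimum of 50 for the mean count, the replicate number as a block, leaving out each library, deposited FPKM or counts for ratios, and the call without a fold minimum. Named genes were all members, list genes past the adjusted p of 0.05, up to 4 abundant list genes that did not pass, and the 5 nearest patterns. Members, lists and tests were chosen with earlier results of these data known. Intervals come from the edgeR fit and include the spread between libraries, whereas the floors from counts cover counting error only. Upstream sequences were matched by symbol for all 8 members in a RefSeq table of GRCm38.p6, which differs from the build of the reads. R was 4.3.3 and Python 3.11.15. The result of 1 further marker list is not reported here.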

Additional observations from a re-analysis of the deposited data

How the results depend on the processing

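Col6a3 and Col8a1 kept direction and call under all 15 alternatives, with log2 fold changes of -1.56 to -1.31 and 2.15 to 2.48 (highest adjusted p 9.79e-05 and 0.00118). Col6a1 (-0.33 to -0.04, adjusted p 0.0767 to 0.892) and Col6a2 (-0.31 to -0.03, 0.101 to 0.904) stayed negative and uncalled. Scaling by library totals moved the median of all genes by 0.17, and limma on log2(TPM + 1) by 0.20, so that small differences depend on the scale. Leaving out 1 library gave Col6a5 1.91 to 9.34, the last without control replicate 3 (adjusted p = 0.013, both remaining controls at 0), and Col8a2 -0.64 (without ablated replicate 1, adjusted p = 0.0327) to -0.21. The cartilage list had 6 genes higher in limma on log2(TPM + 1), 5 on log2(TPM + 0.1) and 1 to 4 with 1 library left out, 1 of them without control replicate 3 or ablated replicate 1 or 3. Of its 3 genes, Alpl kept its call in all 14 alternatives, Sp7 in 10 and Col9a1 in 8. The partner list kept 2 to 3 higher and 4 to 6 lower, and the enzyme list 2 lower. The log2 ratio differences ran from -1.36 to -1.23 for Col6a3 over Col6a1 and from 2.53 to 2.83 for Col8a1 over Col8a2. Deviations of same-numbered libraries from their group means had correlations of -0.0461, -0.0489 and 0.0388. The highest value of any pair was 0.0656, for control replicate 1 with ablated replicate 2. With 3 libraries per group these values cannot decide whether the numbers pair libraries. With the replicate block 2 members were called, as without it, and the log2 fold changes were -1.50 for Col6a3, 2.29 for Col8a1 and 5.40 for Col6a5 (adjusted p = 0.27). In the cartilage list 2 genes were higher with the block, Col9a1 being at 0.96 (adjusted p = 0.0543). Counts per gene do not separate transcript forms, and at no more than 144 counts a library for the pair the alternative chains are limited by depth.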
